A study of Mus musculus with 8 samples.

Results

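The 9 genes described here encode neurotrophic survival signals and their receptors: Bdnf, Ntf3, Gdnf and Cntf among the ligands, and Ntrk2, Ntrk3, Ngfr, Gfra1 and Cntfr among the receptors. They were chosen by gene symbol, and all 9 were found among the 26824 genes of the count table. Retinas came from mice aged 1 month, either wild type (WT, 3 libraries) or labelled as knockouts of Kv8.2 (KO, 5 libraries, numbered 2 to 6), and each library held the 2 retinas of 1 mouse. The animals were untreated. Kv8.2 is the potassium channel subunit encoded by Kcnv2, which photoreceptors use to shape their voltage response. How the knockout allele was made and the strain are not given in the sources used here. The comparison is between the retinas labelled KO and those labelled WT.

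Neurotrophins such as BDNF (Bdnf) and NT-3 (Ntf3) are secreted proteins that bind receptor kinases of the Trk family, TrkB (Ntrk2) and TrkC (Ntrk3), while p75NTR (Ngfr) is a death-domain receptor that binds all neurotrophins and their uncleaved precursors. GDNF (Gdnf) binds the membrane-anchored co-receptor Gfra1 and signals through the kinase Ret, and CNTF (Cntf) binds Cntfr, which then recruits Lifr and gp130 (Il6st) and activates the transcription factor STAT3. In the retina these signals are known for supporting ganglion cells and photoreceptors, partly through Muller glia, the radial support cells of this tissue.

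The libraries held 17759146 to 25188870 counts, and the 5 summed rod markers lay between 30930 and 46370 counts per 1000000 counts (CPM) in every library, so these markers of the labelled tissue were present throughout. Kcnv2 does not separate the groups: it stood at 519 to 551 CPM in WT and at 398 to 585 CPM in the libraries labelled KO. KO 2 lay above every WT library, whereas KO 3 to KO 6, at 447, 398, 409 and 409 CPM, lay below every WT library. The libraries labelled KO are therefore called by their label. KO 4, KO 5 and KO 6 stood apart from the other 5 libraries on the first principal component (39.5% of the variance). Their mitochondrial share was 3.025% to 3.70% of counts, against 5.23% to 7.92% elsewhere. KO 3 carried lens transcripts at 4.57% of its counts, against at most 0.133% in the others. WT 3 alone had Y-linked Ddx3y transcripts (2132 counts, against 1 to 3). The tested genes among the 9 are given both over all libraries and for KO 2 and KO 3 alone. No WT library shares their features, so what sets these libraries apart and the label cannot be told apart within them. In bulk tissue, fewer cells of a type and less RNA per cell cannot be told apart.

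Among the 9 genes, the receptors Ngfr and Cntfr rose in the libraries labelled KO, about 1.99-fold and 1.825-fold, and none of the tested genes passed the test as lower. Ngfr and Cntfr lie on different chromosomes, and their promoters are shown because these are the genes that rose. The sequences are from RefSeq's promoter table (GRCm38.p6), minus strand, and stop at the first base that the GENCODE M21 annotation places in an exon. Of the 9 genes, 8 had an entry in that table. Capitals mark the GC box GGGCGG, searched on both strands.
Ngfr, chr11:95587736-95587948: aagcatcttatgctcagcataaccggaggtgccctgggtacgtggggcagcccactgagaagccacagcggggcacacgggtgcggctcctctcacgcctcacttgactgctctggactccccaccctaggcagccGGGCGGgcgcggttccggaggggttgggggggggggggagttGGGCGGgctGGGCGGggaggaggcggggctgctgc
Cntfr, chr4:41696038-41696287, before the most upstream of its 6 starts in that table, in an intron of the longer gene model of M21: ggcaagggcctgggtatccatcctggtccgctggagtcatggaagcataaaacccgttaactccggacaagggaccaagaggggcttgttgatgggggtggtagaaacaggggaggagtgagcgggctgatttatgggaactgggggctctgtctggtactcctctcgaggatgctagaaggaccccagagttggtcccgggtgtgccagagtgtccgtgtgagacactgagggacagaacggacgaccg
The Ngfr stretch held 3 GC boxes and the Cntfr stretch 0. In whole windows of 300 bases around a start, Ngfr had 4 GC boxes, and 4 of the 6 Cntfr windows, some of which overlap, had 1 or 2. At least 1 GC box was found in 35.7% of 32851 mouse promoter windows. Ngfr's window had a GC content of 71.7%, and the 6 Cntfr windows ranged from 51.3% to 78.7%, against a median of 52.7% over all windows. No window of Ngfr or Cntfr held the letters TTCNNNGAA of a STAT site (8.30% of all windows), GCGTGGGCG of an EGR site (0.612%), TGANTCA of an AP-1 site (7.81%) or TGACGTCA of a cyclic AMP response element (1.79%), on either strand. These matches are descriptions of letters in a window.

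Ngfr (ENSMUSG00000000120, chromosome 11, 95568818 to 95587735 in GRCm38) encodes p75NTR. WT 1, WT 2 and WT 3 held 23.8, 25.3 and 31.5 CPM of it. It was 53.1, 49.3, 48.3, 59.4 and 57.1 CPM in KO 2 to KO 6. Every library labelled KO lay above every WT library, and the lowest of them, KO 4, was still above the highest WT library, WT 3. The means were 26.9 ± 4.07 CPM (SD, n = 3) and 53.45 ± 4.83 CPM (SD, n = 5). On the log2 scale the rise was 0.99 (SE 0.12, 95% interval 0.73 to 1.25), and the quasi-likelihood test of edgeR gave a p-value of 0.00212 after Benjamini-Hochberg adjustment over 20167 genes. It was 0.93 for KO 2 and KO 3 alone (edgeR adjusted p-value 0.0238) and 1.04 for KO 4 to KO 6 alone (edgeR adjusted p-value 1.41e-05). Both values share the same WT libraries. Because the study itself is described as testing 3 libraries against 3, every choice of 3 libraries labelled KO was also fitted. Ngfr was called in each of these 10 fits, where 0.601% to 42.8% of all tested genes were called, with log2 fold changes of 0.90 to 1.07.

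**Figure D1:**
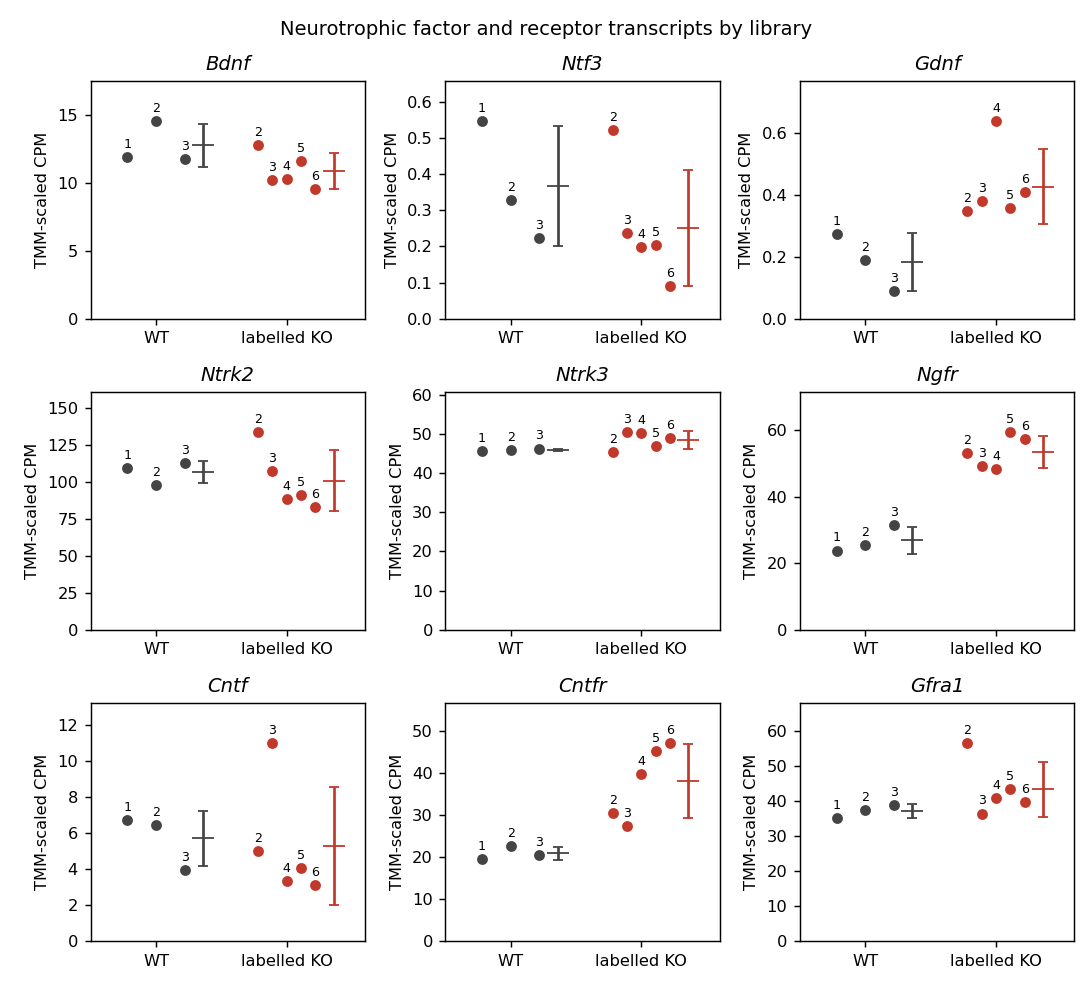
Level of each of the 9 genes in every library, as TMM-scaled CPM on linear axes from 0. Points are libraries with their replicate number, and the bar beside them is the mean with the SD (WT n = 3, labelled KO n = 5). Ngfr, Cntfr and Gdnf are the genes in which every library labelled KO lies above every WT library, with Gdnf at 13 counts or fewer in every library.

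Cntfr (ENSMUSG00000028444, chromosome 4, 41657498 to 41697089) encodes the ligand-binding subunit of the CNTF receptor. In WT 1 to WT 3 its level was 19.5, 22.5 and 20.3 CPM. In KO 2 to KO 6 it was 30.4, 27.4, 39.7, 45.2 and 47.1 CPM. The groups did not overlap, and within the KO label KO 2 and KO 3 were nearer to WT than KO 4 to KO 6. The means were 20.8 ± 1.55 CPM (SD, n = 3) and 37.96 ± 8.78 CPM (SD, n = 5). This was a log2 fold change of 0.87 (SE 0.18, 95% interval 0.465 to 1.27), with an edgeR adjusted p-value of 0.0254. It was 0.475 in KO 2 and KO 3 against WT (edgeR adjusted p-value 0.0990) and 1.09 in KO 4 to KO 6 against WT (edgeR adjusted p-value 2.46e-06), so without KO 4 to KO 6 the value was smaller, in the same direction, and not called. The call was also lost without WT 1, WT 2, WT 3, KO 4 or KO 5 (edgeR adjusted p-values 0.118, 0.103, 0.100, 0.0628 and 0.0604), with log2 fold changes of 0.78 to 0.97 without 1 library, and held in 5 of the 10 fits of 3 against 3. The share of all tested genes called moved in the same fits: it was 0.636%, 0.646% and 0.955% without WT 1, WT 2 or WT 3, 1.84%, 1.94% and 2.68% without KO 4, KO 5 or KO 6, and 13.9% and 20% without KO 2 or KO 3.

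In the test over all 8 libraries, 7 of the 9 genes had enough counts to be tested. Of these, 2 were called higher and 0 lower, where 7.58% of all tested genes were called, 4.74% higher and 2.84% lower. With library size alone as scaling, 2.81% of tested genes were called higher and 3.9% lower, and Ngfr and Cntfr were still called higher. The same pair were the tested genes of the family in which every library labelled KO lay above every WT library, which was so for 10.8% of all tested genes. In KO 2 and KO 3 against WT, 0.891% of tested genes were called and Ngfr alone of the family was. In KO 4 to KO 6 against WT, 42.8% of tested genes were called, and 4 of the 7 tested members were: Ngfr and Cntfr higher, Ntrk2 and Cntf lower.

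**Figure D2:**
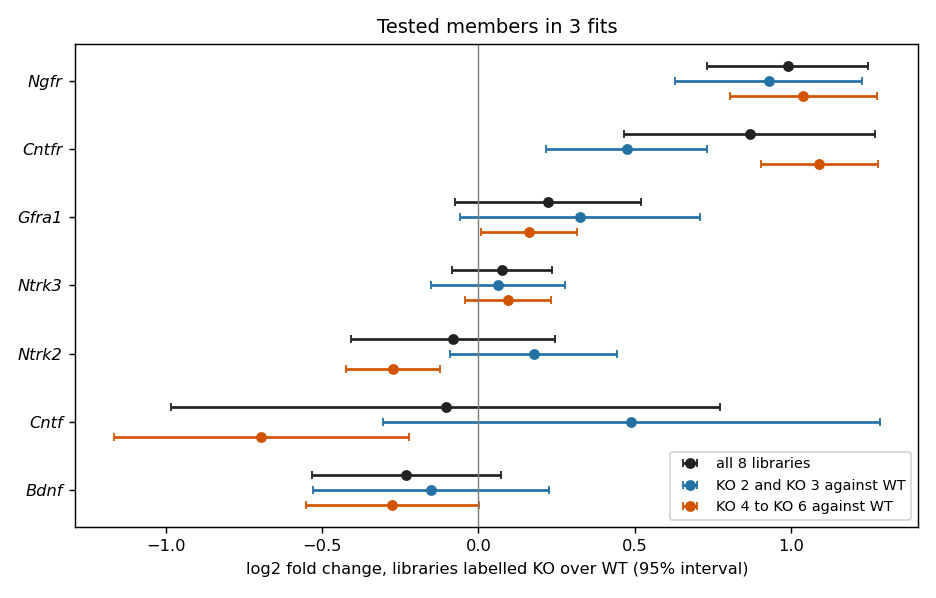
Log2 fold change (labelled KO over WT) of the 7 tested genes, with 95% intervals from the edgeR fit, for all 8 libraries, KO 2 and KO 3 against WT, and KO 4 to KO 6 against WT. Ngfr lies between 0.93 and 1.04 in the 3 fits, Cntfr between 0.475 and 1.09, and Ntrk2 and Cntf lie on opposite sides of 0 in the fits of KO 2 and KO 3 and of KO 4 to KO 6.

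Of the ligands, Bdnf, the TrkB ligand, was at 11.95, 14.6 and 11.8 CPM in WT 1 to WT 3 and at 12.8, 10.2, 10.3, 11.65 and 9.57 CPM in KO 2 to KO 6. KO 2 lay within the WT range and the other 4 libraries labelled KO below it. The log2 fold change was -0.23 (SE 0.14, 95% interval -0.53 to 0.07; edgeR adjusted p-value 0.302), and -0.15 for KO 2 and KO 3 alone (edgeR adjusted p-value 0.656). The annotation places the antisense gene Gm45346 over 14.4% of Bdnf's exon bases, and counting by strand is not stated. Cntf, the CNTF gene, was at 6.74, 6.44 and 3.95 CPM in WT and at 4.99, 11.0, 3.35, 4.04 and 3.10 CPM in KO 2 to KO 6. The highest value was that of KO 3, the library with lens transcripts, and the groups overlapped. Its log2 fold change was -0.105 (SE 0.40, 95% interval -0.98 to 0.77; edgeR adjusted p-value 0.894). It was 0.49 for KO 2 and KO 3 alone (edgeR adjusted p-value 0.476), and -0.55 without KO 3 (edgeR adjusted p-value 0.130). In KO 4 to KO 6 against WT it was -0.695 (edgeR adjusted p-value 0.0214). Cntf counts are uncertain, because 78.4% of its 31-base words (31-mers) also occur in transcripts of Zfp91, which overlaps it on the same strand. Zfp91 was at 211 to 223 CPM in WT, 269 and 204 CPM in KO 2 and KO 3, and 153 to 165 CPM in KO 4 to KO 6, so it too was below WT in the libraries where Cntf was called lower, and its part in the Cntf value was not tested.

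Gdnf and Ntf3 were near the limit of detection and too low for the test over all libraries. Gdnf, the GDNF gene, had 5, 4 and 2 counts in WT 1 to WT 3 and 8, 8, 13, 7 and 9 counts in KO 2 to KO 6. All libraries labelled KO were above all WT libraries. Pooled over libraries and scaled for depth, the ratio was 2.40 (exact conditional 95% interval 1.22 to 5.14, counting error only). With no filter on low counts the edgeR log2 fold change was 1.22 (adjusted p-value 0.201), so the difference did not pass the test across libraries. Ntf3, the main TrkC ligand, had 10, 7 and 5 counts in WT and 12, 5, 4, 4 and 2 counts in KO 2 to KO 6. The groups overlapped, and the pooled ratio was 0.719 (exact conditional 95% interval 0.394 to 1.32, counting error only).

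Of the receptor kinases, Ntrk2, which encodes TrkB, was at 109, 98.1 and 113 CPM in WT 1 to WT 3 and at 134, 107, 88.55, 91.4 and 83.0 CPM in KO 2 to KO 6. KO 2 was above WT, KO 3 within it and KO 4 to KO 6 below it. Over all libraries the log2 fold change was -0.08 (SE 0.15, 95% interval -0.41 to 0.24; edgeR adjusted p-value 0.762). It was 0.18 in KO 2 and KO 3 against WT (edgeR adjusted p-value 0.440) and -0.27 in KO 4 to KO 6 against WT (edgeR adjusted p-value 0.00673). The count per gene does not separate full-length TrkB from its truncated form without a kinase domain. Ntrk3, which encodes TrkC, had the narrowest interval of the 7 tested members. It stood at 45.6, 45.8 and 46.2 CPM in WT and at 45.4, 50.5, 50.2, 46.8 and 49.0 CPM in KO 2 to KO 6, and the log2 fold change was 0.08 (SE 0.07; edgeR adjusted p-value 0.526). Its 95% interval was -0.08 to 0.24. For KO 2 and KO 3 alone the value was 0.06 (edgeR adjusted p-value 0.753).

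Gfra1, the GDNF co-receptor, was at 35.1, 37.3 and 38.95 CPM in WT and at 56.6, 36.4, 40.8, 43.4 and 39.6 CPM in KO 2 to KO 6. KO 2 stood out above all others and KO 3 lay within WT. The log2 fold change was 0.22 (SE 0.135, 95% interval -0.07 to 0.52; edgeR adjusted p-value 0.307), 0.11 without KO 2 (edgeR adjusted p-value 0.390), and 0.33 for KO 2 and KO 3 alone (edgeR adjusted p-value 0.330). The antisense gene Gm16277 covers 7.6% of its exon bases.

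Fold changes in these libraries followed GC content. Over 18028 tested genes with an annotated transcript, the rank correlation (Spearman's rho) of fold change with the GC content of the longest transcript was 0.459, a description across genes, which share the same 8 libraries. It was 0.169 in KO 2 and KO 3 against WT and 0.534 in KO 4 to KO 6 against WT. Ngfr (58.6% GC) and Cntfr (59.8%) are the most GC-rich of the tested members, where the other 5 lie between 40.9% and 49.7%. Genes within 2 percentage points of their GC content had a median log2 fold change of 0.245 (Ngfr, 1906 genes) and 0.25 (Cntfr, 1377 genes), with upper quartiles of 0.46 and 0.475, and both genes lay above those quartiles. With an offset for GC content in each library, the log2 fold change was 0.76 for Ngfr (SE 0.11; edgeR adjusted p-value 0.00412) and 0.60 for Cntfr (SE 0.12; edgeR adjusted p-value 0.0214), so both kept the call with smaller values, where 6.26% of genes were called. Bdnf, the most AT-rich tested member (40.9% GC), moved from -0.23 to 0.02, and Ntrk3 (43.6% GC) from 0.08 to 0.23 (95% interval 0.055 to 0.413), neither of them called (edgeR adjusted p-values 0.937 and 0.110). The part of GC content in the levels was not tested otherwise.

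**Figure D3:**
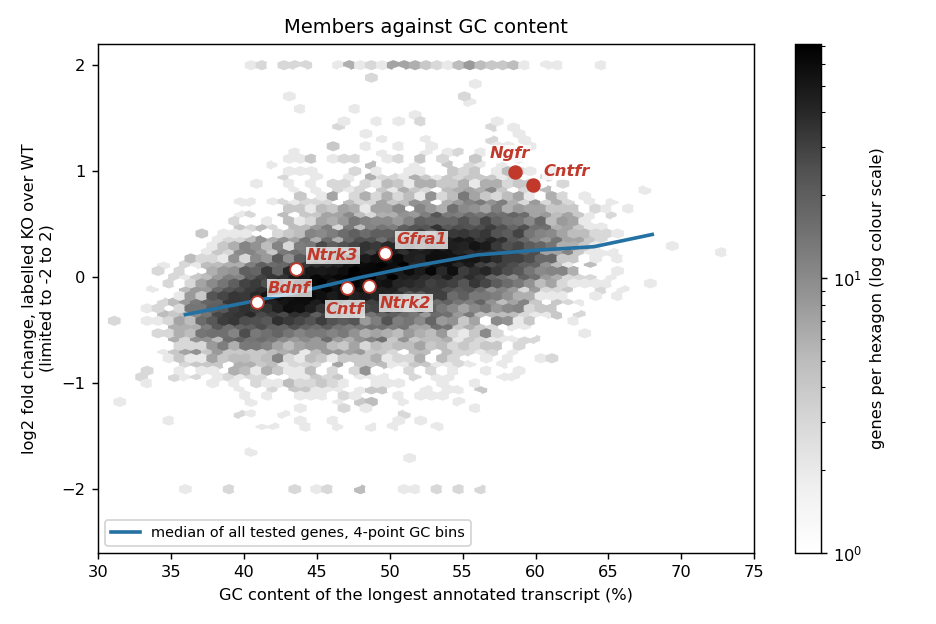
Log2 fold change (labelled KO over WT, limited to -2 to 2) against the GC content of the longest annotated transcript, for tested genes with a GC value between 30% and 75%. Hexagons are shaded by the number of genes on a log scale, the line is the median of all tested genes in GC bins, and circles are the 7 tested members (filled, called). Ngfr (0.99) and Cntfr (0.87) lie above the line, and Bdnf (-0.23) lies on it.

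Some markers of other cells moved in the same direction as Ngfr. Of 6 endothelium and pericyte markers 2 were called higher, the receptors Kdr (log2 fold change 0.92) and Pdgfrb (0.93). The summed level of the 6 was 215 to 231 CPM in WT and 299 to 374 CPM in the libraries labelled KO. Most of that sum was Kdr, at 112 to 118 CPM in WT and 163 to 251 CPM in the libraries labelled KO. Pecam1 (0.26), Cldn5 (0.33), Cdh5 (0.37) and Rgs5 (0.165) were not called (edgeR adjusted p-values 0.201 to 0.380). Ngfr was at 11.0 to 13.65 CPM for each 100 CPM of the 6 summed markers in WT and at 12.9 to 16.85 CPM in the libraries labelled KO. On that scale, set mostly by Kdr, KO 4 fell within the WT range. Of 8 Muller glia markers 3 were called higher, Sox9 (0.62), Kcnj10 (0.54) and Abca8a (0.51), and the summed level was 4132 to 4348 CPM in WT and 4301 to 6388 CPM in the libraries labelled KO. Most of that sum was Glul (means 2439 CPM in WT and 2668 CPM under the KO label) and Dkk3 (874 and 1059 CPM), neither of them called. The called Sox9, Kcnj10 and Abca8a averaged 15.5, 57.8 and 196 CPM in WT, so ratios to the sum mainly compare with Glul and Dkk3. Relative to 100 CPM of the 8 markers, Ngfr was at 0.576 to 0.7575 CPM in WT and at 0.831 to 1.33 CPM in the libraries labelled KO, without overlap. Cntfr overlapped on this scale, at 0.472 to 0.518 CPM and 0.476 to 1.095 CPM. Cntfr also overlapped relative to the endothelium and pericyte markers, at 8.82 to 10.5 CPM in WT and 8.705 to 13.9 CPM in the libraries labelled KO. Of 8 ganglion cell markers none passed the test (summed 1089 to 1196 CPM in WT and 1061 to 1481 CPM in the libraries labelled KO). Of 6 microglia markers 2 were called higher, Tmem119 (0.94) and Csf1r (0.69), with sums of 22.9 to 25.8 CPM in WT and 28.6 to 40.8 CPM in the libraries labelled KO. Of 5 astrocyte markers Gfap alone was called (1.67), and the sums were 38.9 to 40.4 CPM in WT and 66.2 to 110.5 CPM in the libraries labelled KO. Gfap was the largest part of these sums, at 19.1 to 20.7 CPM and 47.4 to 78.3 CPM. Aldh1l1 (0.78) and S100b (-0.14) were not called, and Pax2 and Igsf1 were at or below 0.81 CPM in every library. The myelin markers Mog, Mag and Mobp were at or below 0.400 CPM in every library. Of the listed markers 0 were at 0 in all 8 libraries. Cone markers moved the other way: of 5, 2 were called lower, Pde6h (-0.74) and Gnat2 (-0.47), 0 were called higher, and the summed level was 779.5 to 984.5 CPM in WT and 518 to 692 CPM in the libraries labelled KO. Of 6 horizontal cell markers Calb1 alone was called, as lower (-0.49), with sums of 388 to 415 CPM in WT and 362 to 446 CPM in the libraries labelled KO. In KO 2 and KO 3 against WT, 0 Muller glia, 0 microglia and 0 horizontal cell markers were called, although the median log2 fold change was 0.43 for Muller glia markers and 0.60 for microglia markers there, against 0.28 and 0.32 in KO 4 to KO 6. In KO 2 and KO 3 against WT, 2 endothelium and pericyte markers and 1 astrocyte marker were called higher and 2 cone markers lower. The part of these cell types in the levels of Ngfr and Cntfr was not tested.

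**Figure D4:**
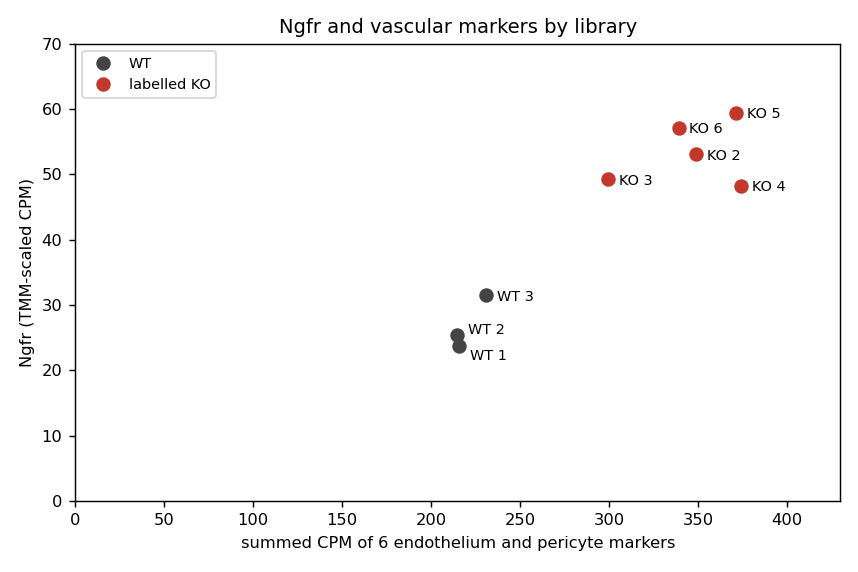
Ngfr level against the summed level of 6 endothelium and pericyte markers, both in TMM-scaled CPM, for each of the 8 libraries. The 3 WT libraries lie at 215 to 231 CPM of markers and below 32 CPM of Ngfr, and the 5 libraries labelled KO lie at 299 to 374 CPM of markers and above 48 CPM of Ngfr. Most of the marker sum is Kdr, at 112 to 118 CPM in WT and 163 to 251 CPM in the libraries labelled KO.

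Of 13 other genes of CNTF and related cytokine signalling, Lif and Osmr among them, 12 were tested, 6 were called higher and 0 lower. Over all tested genes, 4.74% were called higher and 2.84% lower, to be set beside this list and those below. The lists were chosen with earlier results of these data known, so their counts and medians are descriptions of the listed genes. The median log2 fold change of this list was 0.65, against 0.001 over all tested genes. Il6st, which encodes the shared signalling subunit gp130, was at 104 to 115 CPM in WT and at 147 to 202 CPM in the libraries labelled KO, a log2 fold change of 0.695 (SE 0.11; edgeR adjusted p-value 0.00897). Lifr, the remaining signalling subunit, was at 75.4 to 86.95 CPM in WT and at 99.3 to 125 CPM in the libraries labelled KO, a log2 fold change of 0.45 (SE 0.10; edgeR adjusted p-value 0.0280). Over all libraries the 3 subunits of the CNTF receptor were thus called higher, and the ligand gene Cntf was not called. With library size alone as scaling, Lifr was not called (0.42; edgeR adjusted p-value 0.0612). Downstream, Stat3 (1.23) rose, as did the related cytokine Lif (2.56) and the receptor subunit Osmr (1.34), whereas Jak1 (0.13) and Jak2 (-0.10), the kinases bound to these receptors, were not called. In KO 2 and KO 3 against WT, Stat3 and Osmr were called (edgeR adjusted p-values 0.00567 and 0.0294) and Il6st (0.0650), Lifr (0.141) and Lif (0.126) were not. Leaving out 1 library ended the call for Lifr without WT 1, WT 2, WT 3, KO 4, KO 5 or KO 6 (edgeR adjusted p-values 0.0535 to 0.143), for Il6st without WT 1 or WT 2 (0.0587 and 0.0691) and for Lif without any of the 3 WT libraries (0.0520 to 0.0883). The log2 fold changes without 1 library were 0.40 to 0.50 for Lifr, 0.65 to 0.77 for Il6st and 2.24 to 2.93 for Lif.

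Of 20 other genes of neurotrophin signalling 19 were tested, 2 were called higher and 0 lower, and the median was 0.19 on the log2 scale. The genes called were Sorcs2, a sortilin-family receptor that pairs with p75NTR (0.64, SE 0.14; edgeR adjusted p-value 0.0268), and Maged1, an adaptor that binds p75NTR (0.59, SE 0.13; edgeR adjusted p-value 0.0310). Sorcs2 rose from 43.6 ± 3.66 to 67.8 ± 10.8 CPM and Maged1 from 215 ± 2.28 to 322.5 ± 49.55 CPM (SD, n = 3 and n = 5). Of 14 other genes of GDNF family signalling 10 were tested, 2 were called higher and 0 lower, and the median was 0.25. These were Ret, the signalling kinase for the family (0.42, SE 0.11; edgeR adjusted p-value 0.0470), and the adhesion molecule Ncam1 (0.69, SE 0.16; edgeR adjusted p-value 0.0316). Gfra2, the neurturin co-receptor, was at 23.5 to 27.5 CPM in WT and at 27.6 to 32.65 CPM in the libraries labelled KO and was not called (0.23; edgeR adjusted p-value 0.158). None of Sorcs2, Maged1, Ret and Ncam1 was called in KO 2 and KO 3 against WT (edgeR adjusted p-values 0.152 to 0.266), each lost the call without WT 1, WT 2, WT 3, KO 4, KO 5 or KO 6 (0.0567 to 0.186), and Ret also lost it with the GC offset (0.0724), with library size alone (0.0772) and with no filter on low counts (0.0610). Without 1 library the log2 fold changes were 0.59 to 0.74 for Sorcs2, 0.51 to 0.67 for Maged1, 0.38 to 0.50 for Ret and 0.65 to 0.80 for Ncam1.

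**Figure D5:**
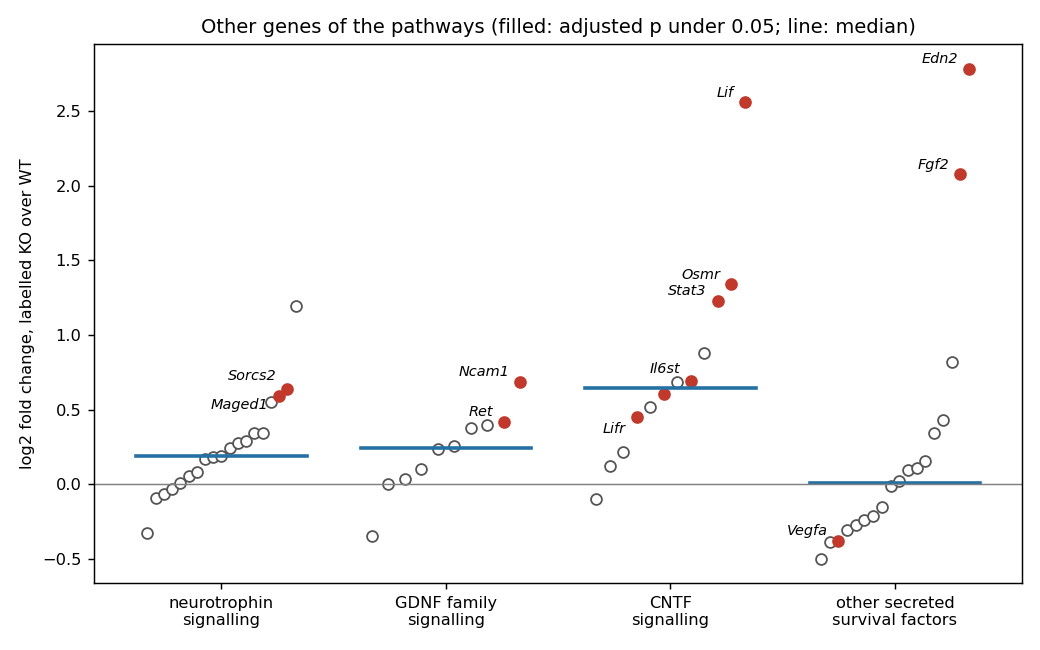
Log2 fold change (labelled KO over WT, all 8 libraries) of the tested genes of 4 lists that hold none of the 9 genes. Filled points passed an edgeR adjusted p-value of 0.05, those described in the text are named, and lines are list medians (0.19, 0.25, 0.65 and 0.008). Among CNTF signalling genes 6 are filled, and among the other lists 2 or 3. The lists were chosen with earlier results of these data known.

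Among 18 other secreted survival factors, all tested, 2 were called higher and 1 lower, and the median was 0.008 on the log2 scale. Fgf2 (2.075), a fibroblast growth factor, and Edn2 (2.785), an endothelin, rose, and Vegfa, the vascular growth factor, fell from 128 ± 6.27 to 98.4 ± 7.19 CPM (SD, n = 3 and n = 5), by -0.38 on the log2 scale (SE 0.09; edgeR adjusted p-value 0.0317). Edn2 and Vegfa were not called in KO 2 and KO 3 against WT (edgeR adjusted p-values 0.189 and 0.0976), where Edn2 had a log2 fold change of 0.72, and Fgf2 was called there (1.85; edgeR adjusted p-value 0.00105). Edn2 was not called with library size alone (edgeR adjusted p-value 0.05035) or with robust estimation (0.1095). Both Edn2 and Vegfa lost the call without WT 1, WT 2, WT 3, KO 4, KO 5 or KO 6 (0.0622 to 0.166), with values without 1 library of 2.43 to 3.05 for Edn2 and -0.40 to -0.33 for Vegfa. The rod-derived cone viability factor gene Nxnl1 was at 326 to 343 CPM in WT and at 255 to 311 CPM in the libraries labelled KO and was not called (-0.21; edgeR adjusted p-value 0.187).

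The genes whose centred log2 CPM over the 8 libraries was nearest to that of Ngfr, among the 14690 genes averaging 1 or more in log2 CPM, were Cplx2 (root mean square difference 0.089), Htra1 (0.10) and Man2b2 (0.13). Their log2 fold changes were 1.07, 0.81 and 0.95. Htra1, a secreted serine protease, went from 48.35 ± 4.95 to 84.9 ± 9.205 CPM (SD, n = 3 and n = 5). Nearest to Cntfr were Gpc1 (0.076), Klhl36 (0.083) and Pdlim4 (0.093), with log2 fold changes of 0.88, 0.90 and 0.83. Gpc1, a membrane heparan sulfate proteoglycan, went from 20.3 ± 0.665 to 37.3 ± 8.72 CPM (SD, n = 3 and n = 5). Their GC contents were 50.1% to 58.5% for the genes near Ngfr and 55.8% to 60.5% for those near Cntfr.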

How the data were processed

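Total RNA of 8 retinal samples was sequenced, per the labels' protocols. The authors deposited raw counts per gene as whole numbers. The submitters' processing notes name Trim Galore, Salmon 1.10.2, DESeq2 and build GRCm38 without saying what each was used for, so the counts may be rounded estimates. The annotation and strand setting are not given in the sources used here. Every gene had at least 16 counts in total.

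Counts were scaled by TMM in edgeR 4.0.16 (R 4.3.3) and filtered with filterByExpr, which left 20167 of 26824 genes. The quasi-likelihood test of edgeR compared the WT and KO labels over all 8 libraries, because the 2 samples the series text says were left out are not named. P-values were adjusted by Benjamini-Hochberg over all tested genes, with a threshold of 0.05. The 95% intervals came from the fold change, its F statistic and the total (prior plus residual) degrees of freedom of the test. Levels are TMM-scaled CPM, where 3 counts equal 0.130 to 0.1645 CPM. Library totals were 17759146 to 25188870, and intervals of ratios cover counting error only. The fit was also run on simulated counts, and the outcome is not reported here. Libraries of 1 group differed by more than sampling noise in every pair (chi-square per degree of freedom at least 5.38).

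Positions, GC content and shared 31-mers came from GENCODE M21 (GRCm38). The alternatives were DESeq2 1.42.0, limma 3.58.1, other scalings and filters, fits without 1 or 2 libraries, fits of KO 2 and KO 3 or of KO 4 to KO 6, the replicate number as a block, and, chosen after seeing the data, a GC offset and crossed numbers. Genes named are Kcnv2, the 9 members, called genes of the pathway lists, and the 3 genes nearest to each called member. Other pathway and marker genes were named after their values were seen. Some genes of the lists are counted but not reported by name here. The members and lists were chosen with earlier results of these data known.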

Additional observations from a re-analysis of the deposited data

Results flagged for a closer look

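Gaps were looked for among the 5 libraries labelled KO in 10 genes, the 9 members and Kcnv2, where chance gives about 0.5 at the limit of 0.71 of the whole range. Cntf in KO 3, at 11.0 CPM, lay above the other libraries labelled KO by 0.761 of their range. Gdnf in KO 4, at 0.640 CPM or 13 counts, lay above the others by 0.786 of the range. Kcnv2 in KO 2, at 585 CPM, lay above the others by 0.738 of the range.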

How the results depend on the processing

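In the fits tabulated for it, Ngfr kept its direction, and its call in all but the 2 fits of WT 2, WT 3, KO 2 and KO 3 described with the replicate block. Without 1 library or a pair, its log2 fold change was 0.90 to 1.12 and that of Cntfr 0.64 to 0.976 (1.09 in KO 4 to KO 6 against WT). Cntfr kept its direction throughout and was not called in KO 2 and KO 3 against WT (0.475, or 0.38 after GC correction). The number of genes called, 1529, was 118 to 3992 without 1 library or a pair, 8416 for KO 4 to KO 6, 180 for KO 2 and KO 3 (161 after GC correction), 3034 with DESeq2 and 8248 with limma voom. The cause was not tested. Members called numbered 2. They were 1 to 2 without 1 library or a pair, 4 for KO 4 to KO 6, 1 for KO 2 and KO 3 (also after GC correction), and 3 with limma voom, which called Ntrk2 lower (-0.25) where 40.9% of genes were called. Ntrk2 turned positive for KO 2 and KO 3 (0.18, or 0.16 after GC correction) and ranged from -0.20 to 0.056 without 1 library or a pair (-0.27, called, for KO 4 to KO 6). Cntf turned positive in the same fits (0.49 and 0.48) and ranged from -0.58 to 0.23 (-0.695, called, for KO 4 to KO 6). Bdnf reversed with the GC offset (0.024).

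Numbers 2 and 3 occur in both groups, and nothing says that they pair mice. The deviations of same-numbered libraries had a correlation of -0.19. With the replicate block, 52 genes were called (14 with no block, 527 with crossed numbers, chosen after seeing the data), of which 0 were members with the block or with none. Under the block and without it the log2 fold change was 0.86 and 0.85 for Ngfr (edgeR adjusted p-values 0.0979 and 0.1555), 0.43 and 0.43 for Cntfr, 0.19 and 0.19 for Ntrk2, and 0.56 and 0.62 for Cntf. Depth limits Gdnf and Ntf3, at 13 counts or fewer in a library.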
